A study of Mus musculus with 20 samples.

Results

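The 9 genes described here encode complement proteins that the liver makes and secretes: the early components C3 and C4b, the alternative pathway protease Cfb, the regulator Cfi, and the terminal components Hc (which encodes C5), C6, C8a, C8b and C9. They were picked by gene symbol from the 32400 genes of the count table, and all 9 were present and passed the filter on low counts. The measurements are mRNA-seq of liver from C57BL/6NTac mice, an inbred strain, in 20 libraries of 3 groups. The first group, called HFHF Flcn gRNA (n = 8), received a guide RNA against Flcn carried by AAV8, a viral vector that reaches hepatocytes well, and ate a high-fat, high-fructose diet. The second, HFHF control (n = 7), received phosphate-buffered saline as vehicle and ate the same diet. The third, chow control (n = 5), was untreated and ate standard chow. Flcn encodes folliculin, a regulator of nutrient signalling at the lysosome. The vehicle held no virus, so the effects of the guide and of the vector cannot be told apart, and the chow mice received no vehicle, so those of diet and of vehicle cannot be told apart either. The sources used here do not give the guide's target position, the source of the nuclease, the age or sex of the mice, or the length of feeding. They also do not say that each library is a separate animal, so p-values measure the spread between libraries.

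Complement is a cascade of plasma proteins that marks and lyses microbes and damaged cells. The classical, lectin and alternative pathways converge on enzymes that cleave C3, and the fragment C3b then helps to cleave C5. The fragment C5b gathers C6, C7, C8 and several C9 molecules into a pore, the membrane attack complex. C8 is built from an alpha, a beta and a gamma chain, encoded by C8a, C8b and C8g. Hepatocytes are the main source of most of these plasma proteins, whereas C1q comes mainly from macrophages and factor D, in mice, mainly from fat cells.

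Library totals were 13974379 to 19586576 expected counts with HFHF Flcn gRNA, 15244760 to 18194089 in HFHF controls and 14131976 to 16285324 in chow controls. The lowest count of any of the 9 genes in any library was 622, for C8b, so counting error was small for all of them. Flcn itself averaged 17.8 ± 2.40 CPM, that is counts scaled by library size, with HFHF Flcn gRNA, 20.7 ± 2.98 CPM in HFHF controls and 22.2 ± 6.03 CPM in chow controls (SD). Its log2 fold change between the HFHF groups was -0.22 (SE 0.12, edgeR quasi-likelihood test, adjusted p = 0.140, exact permutation p = 0.0472). Against chow controls it was -0.32 and just past the threshold (SE 0.13, adjusted p = 0.04995), a call lost under most of the 25 alternative settings. None of 8 hepatocyte markers, such as Alb and Ttr, was at 0 in any group. HFHF Flcn gRNA replicate 8 carries a sample title whose second field differs from that of every other library. Ddx3y, a Y-linked gene looked at after its values were seen, stood at 41.4 to 76.8 CPM in every library, and Xist stood at no more than 0.22 CPM.

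Per kilobase of exon, C3 was the most abundant of the 9 mRNAs in every group, at 710 ± 198 CPM per kb with HFHF Flcn gRNA, 850.5 ± 81.3 CPM per kb in HFHF controls and 1656 ± 130 CPM per kb in chow controls (SD). Cfb followed at 284 ± 23.0, 292 ± 14.8 and 344 ± 27.8 CPM per kb in the same groups. In chow livers the levels of Cfi, C8a, C9, Hc and C4b then ran from 249 down to 194 CPM per kb, and the mean ± SD ranges of neighbours in that order overlapped. C8b, at 142 ± 24.2 CPM per kb, and C6, at 80.3 ± 22.4 CPM per kb, were the lowest in chow livers. In HFHF controls C8b was last, at 18.4 ± 5.37 CPM per kb, below C6 at 55.9 ± 23.1 CPM per kb. With HFHF Flcn gRNA these last genes did not differ beyond their spread, at 46.6 ± 24.2 CPM per kb for C8b and 49.3 ± 23.8 CPM per kb for C6. The plot of levels by library gives every value behind these means.

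**Figure D1:**
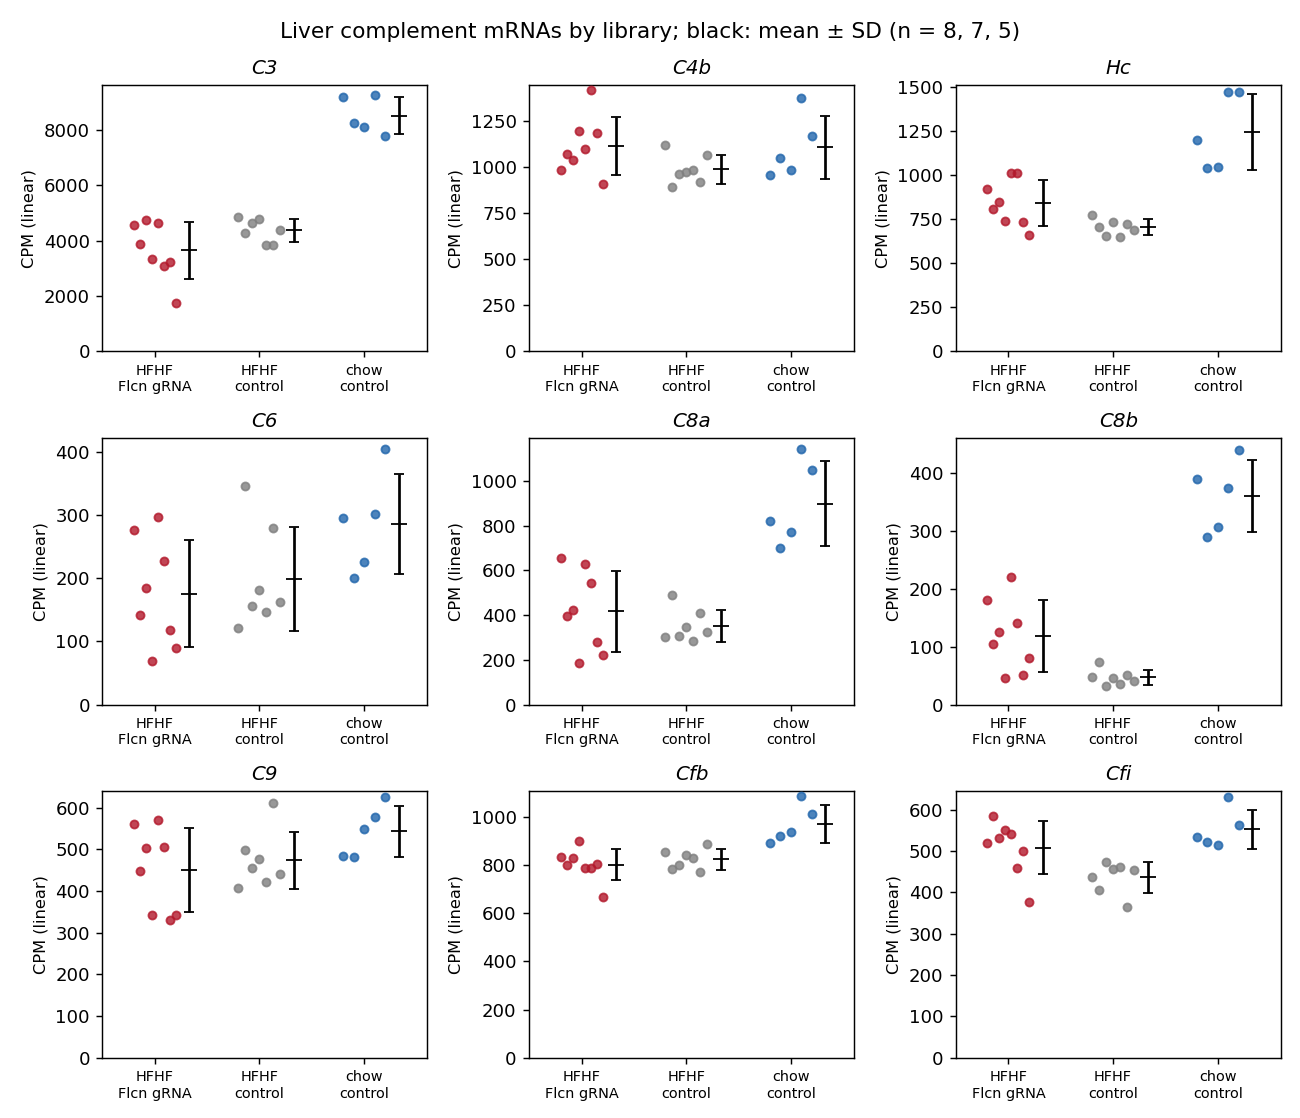
Normalized level (CPM, linear axis from 0) of the 9 complement mRNAs in each library of HFHF Flcn gRNA (red, n = 8), HFHF control (grey, n = 7) and chow control (blue, n = 5) livers; each point is a library and the black bar is the mean ± SD. C3, Hc, C8a and C8b were lower in every library on the HFHF diet than in every chow library, while C4b, C6 and C9 overlapped among all groups.

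The diet comparison asked how the HFHF diet with vehicle differed from chow. Of the 9 genes, 6 fell in HFHF controls against chow controls (C3, Cfb, Cfi, Hc, C8a and C8b), none rose, and C4b, C6 and C9 were not called (edgeR quasi-likelihood test, adjusted p under 0.05 over 13667 genes). Over all genes tested, 57% were called in that comparison, 28.1% higher and 28.9% lower. The same 6 genes had libraries that did not overlap between the groups, against 18.1% of all genes tested in that direction and 18.8% in the other. The median log2 fold change of the 9 genes was -0.52, beside -0.01 over all genes tested, and every fitted value lay below 0. In bulk tissue, fewer cells of a type and less RNA per cell cannot be told apart. Markers of hepatocytes moved the same way: 7 of 8 fell and none rose. Their summed level, most of it from Alb, was 43201 to 66125 CPM in HFHF control and 77167 to 102388 CPM in chow control libraries. Markers of several other cell types rose, but not of all. All 8 stellate cell markers rose, with sums of 646 to 938 CPM in HFHF controls and 195 to 244 CPM in chow controls. So did all 7 of monocyte-derived macrophages, all 3 neutrophil markers tested and 2 of 3 cholangiocyte markers tested. Of 5 lymphocyte markers tested, 3 rose and none fell. Among 7 markers of Kupffer cells, the resident macrophages, 2 rose and 2 fell. Of 6 endothelial markers, 1 rose and 3 fell. The part of these cells in the result was not tested.

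C8b and C8a lie on chromosome 4 (positions here and for the other genes are on mouse build GRCm38), end to end on opposite strands with 11.1 kb between them. C8b (ENSMUSG00000029656, 104766317 to 104804548, plus strand) encodes the C8 beta chain, which joins C8 to the growing C5b-C7 complex. It measured 32.4 CPM in the lowest, 46.2 CPM in the median and 73.6 CPM in the highest HFHF control library. The 5 chow libraries stood at 389.8, 289.9, 307, 374 and 439.9 CPM. Every HFHF control library was therefore far below every chow library, and the level was 7.69-fold lower (log2 fold change -2.94, SE 0.33, adjusted p = 8.1e-07). C8a (ENSMUSG00000035031, 104815679 to 104876398, minus strand) encodes the alpha chain, which inserts into the membrane and binds C9. HFHF control libraries held 286 CPM at the lowest, 324 CPM at the median and 488 CPM at the highest, against 821, 700.4, 773, 1143 and 1049 CPM in chow livers. C8a fell 2.56-fold (log2 fold change -1.35, SE 0.27, adjusted p = 0.000265), with no overlap between the groups.

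C3 (ENSMUSG00000024164, chromosome 17, 57203970 to 57228136, minus strand) encodes the protein on which all 3 activation pathways converge. HFHF control libraries ranged from 3835 CPM to 4850.3 CPM with a median of 4386 CPM, and the chow libraries stood at 9192, 8267, 8094, 9252 and 7771 CPM. The groups were well apart, and C3 fell 1.95-fold (log2 fold change -0.96, SE 0.16, adjusted p = 3.19e-05). Hc (ENSMUSG00000026874, chromosome 2, 34983331 to 35061438, minus strand) encodes C5, the source of the chemoattractant C5a and of C5b. It measured 649 to 772 CPM in HFHF controls with a median of 707 CPM, against 1195, 1036, 1045, 1466 and 1468 CPM in chow livers. The libraries again did not overlap, and Hc fell 1.77-fold (log2 fold change -0.82, SE 0.11, adjusted p = 1.76e-06).

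The 3 genes with the largest falls on the diet are shown with the 250 bases before their RefSeq start, 5′ to 3′ on the gene's own strand (RefSeq, GRCm38.p6), because these are the upstream sequences of the mRNAs that moved most. RefSeq promoter entries were matched for 6 of the 9 genes. The windows are chr4:104766067-104766316 (plus strand) for C8b, chr4:104876399-104876648 (minus strand) for C8a and chr17:57228137-57228386 (minus strand) for C3. Capitals mark matches to 4 motifs, searched on both strands.
C8b: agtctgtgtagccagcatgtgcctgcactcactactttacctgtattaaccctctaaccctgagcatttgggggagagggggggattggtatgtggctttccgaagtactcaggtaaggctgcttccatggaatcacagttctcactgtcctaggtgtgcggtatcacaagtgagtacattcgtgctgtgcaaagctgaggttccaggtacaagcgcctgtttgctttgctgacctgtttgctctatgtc
C8a: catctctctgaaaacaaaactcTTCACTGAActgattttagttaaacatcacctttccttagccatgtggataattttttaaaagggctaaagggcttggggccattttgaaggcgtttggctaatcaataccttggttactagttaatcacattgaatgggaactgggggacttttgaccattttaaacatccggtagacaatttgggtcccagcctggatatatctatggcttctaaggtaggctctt
C3: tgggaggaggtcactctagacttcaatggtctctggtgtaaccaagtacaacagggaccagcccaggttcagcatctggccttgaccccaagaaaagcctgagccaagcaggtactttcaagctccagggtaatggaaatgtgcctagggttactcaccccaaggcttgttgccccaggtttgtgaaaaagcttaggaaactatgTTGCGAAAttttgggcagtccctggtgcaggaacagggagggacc
The motifs were the STAT site TTCNNNGAA, held by 7.04% of 32536 RefSeq promoters of the same length, the HNF4 site CAAAGTCCA (0.387%), the C/EBP site TTGCNNAA (9.57%) and the NF-kB consensus (3.92%). C3 held a C/EBP match, TTGCGAAA, from position -45 counted from the RefSeq start, and C8a held a STAT match, TTCACTGAA, from position -228. The C8b window held none of the 4. Among the other matched genes, C9 held a C/EBP match, Hc and C6 held none, and no matches overlapped. A match is a run of letters and not a measured binding site.

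The remaining diet changes were smaller. Cfi (ENSMUSG00000058952, chromosome 3, 129835884 to 129875332, plus strand) encodes factor I, the protease that inactivates C3b and C4b. HFHF control libraries stood at 364 CPM at the lowest, 454 CPM at the median and 475 CPM at the highest, against 534, 522, 515, 632 and 563 CPM in chow livers. They did not overlap, and Cfi fell 1.27-fold (log2 fold change -0.34, SE 0.09, adjusted p = 0.00321). Cfb (ENSMUSG00000090231, chromosome 17, 34856374 to 34862518, minus strand) encodes factor B, the protease of the alternative pathway's C3-cleaving enzyme. It measured 771 to 889 CPM in HFHF controls with a median of 828.9 CPM, against 893, 923, 938, 1086 and 1014 CPM in chow livers. The highest HFHF control library lay just under the lowest chow library, and Cfb fell 1.18-fold (log2 fold change -0.24, SE 0.07, adjusted p = 0.00788). That call was lost under upper-quartile normalization, at a log2 fold change of -0.14 (adjusted p = 0.101), and without chow control replicate 4, at -0.16 (adjusted p = 0.0722). The gene model Gm20547 overlaps Cfb on the same strand and shares 72.9% of its 51-base windows, the read length, but with 21.7 to 58.8 CPM its counts were small beside those of Cfb. Summing both, an alternative chosen after seeing the data, gave a log2 fold change of -0.23 (adjusted p = 0.0104).

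C4b, C6 and C9 were not called on the diet. C4b (ENSMUSG00000073418, chromosome 17, 34728380 to 34743882, minus strand) encodes C4, shared by the classical and lectin pathways, and measured 891 to 1120 CPM in HFHF controls against 956.5, 1048, 984, 1377 and 1167 CPM in chow livers. Its log2 fold change was -0.16 (SE 0.10, adjusted p = 0.186). The near-copy C4a shares 33.9% of the 51-base windows of C4b, so its value is uncertain, and the sum of both gave -0.19 (adjusted p = 0.119). C6 (ENSMUSG00000022181, chromosome 15, 4727175 to 4814967, plus strand), the first protein to bind C5b, measured 121 to 347 CPM in HFHF controls against 296, 201, 225, 301 and 405 CPM in chow livers. C9 (ENSMUSG00000022149, chromosome 15, 6445327 to 6498751, plus strand), which forms the wall of the pore, measured 408 to 612 CPM against 485, 481, 548, 577 and 624.6 CPM in the same groups. Both overlapped, with log2 fold changes of -0.52 for C6 (SE 0.34, adjusted p = 0.208) and -0.20 for C9 (SE 0.14, adjusted p = 0.230). For the 6 genes that fell, the exact two-sided permutation test on log2 CPM gave p = 0.00126 each, the smallest that 792 regroupings can give.

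**Figure D2:**
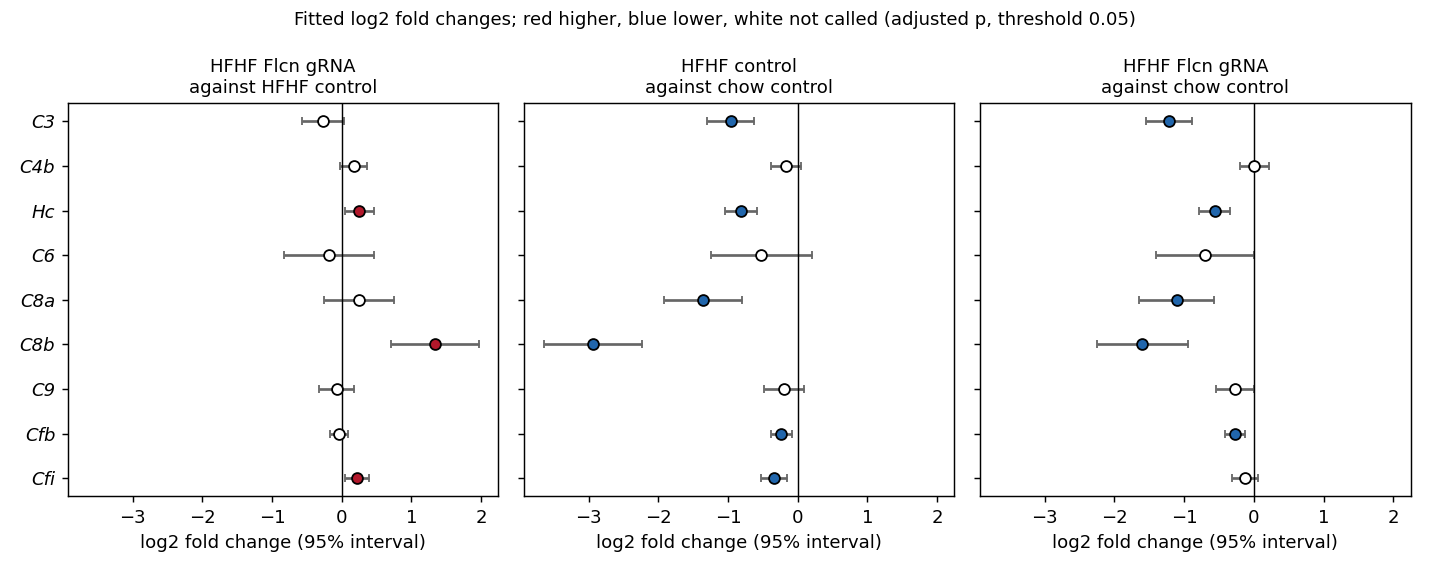
Fitted log2 fold change (horizontal axis) with its 95% interval for the 9 complement genes in each comparison, with red for called higher, blue for called lower and white for not called at an adjusted p of 0.05. C8b lies farthest from 0 in every panel, at 1.34, -2.94 and -1.60.

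The guide comparison asked how HFHF Flcn gRNA livers differed from HFHF control livers on the same diet. Of the 9 genes, 3 rose (C8b, Hc and Cfi), none fell, and 6 were not called. Over all genes tested, 19.6% were called higher and 19% lower (38.6% in all). None of the 9 had libraries that did not overlap, where 5.04% of all genes tested lay wholly higher and 6.01% wholly lower. Their median log2 fold change was 0.17, beside 0.01 over all genes tested. Of the 9 fitted values, 4 lay below 0. Of 8 hepatocyte markers, 5 were higher, none was lower and none had a fitted value below 0. Their sum was 51850 to 86350 CPM with HFHF Flcn gRNA and 43201 to 66125 CPM in HFHF controls. Most of that sum came from Alb, which was not called between these groups (log2 fold change 0.18, edgeR adjusted p = 0.318). Stellate cell markers fell in 6 of 8 cases, with sums of 251 to 398 CPM with HFHF Flcn gRNA and 646 to 938 CPM in HFHF controls. All 3 neutrophil and all 3 cholangiocyte markers tested fell too. Other cell types did not follow: of 6 endothelial markers 3 rose and none fell, and of 7 Kupffer cell markers 3 rose and 2 fell. Of 5 lymphocyte markers tested, 2 rose and 3 fell. The part of these cells in the result was not tested. This comparison and the diet comparison share the HFHF control libraries, so opposite signs in them are not independent. In neither of them did any of the 9 genes reach an unadjusted p under 0.05 in the other direction in edgeR, and DESeq2 and limma-voom also called 0 there.

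C8b changed most. It measured 45.3 CPM in the lowest, 115 CPM in the median and 221 CPM in the highest HFHF Flcn gRNA library, against 32.4, 46.2 and 73.6 CPM for the lowest, median and highest HFHF control. In 6 of 8 libraries with the guide it was above every HFHF control. The level was 2.53-fold higher (log2 fold change 1.34, SE 0.30, adjusted p = 0.00165). An exact two-sided permutation test of log2 CPM gave p = 0.00559. The call held under all 25 alternatives, with log2 fold changes of 1.14 to 1.48.

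Hc and Cfi rose by less, and both calls were close to the threshold. Hc measured 658 CPM, 827 CPM and 1012 CPM in the lowest, median and highest HFHF Flcn gRNA library, against 649, 707 and 772 CPM for HFHF controls. It lay above every HFHF control in 5 of 8 libraries (log2 fold change 0.26, SE 0.10, adjusted p = 0.0439, exact permutation p = 0.0216). Cfi measured 377, 526.2 and 586 CPM in the lowest, median and highest HFHF Flcn gRNA library, against 364, 454 and 475 CPM for HFHF controls. It lay above every HFHF control in 6 of 8 libraries (log2 fold change 0.22, SE 0.08, adjusted p = 0.0380, exact permutation p = 0.0334). The call of Hc was lost in 15 of 25 alternatives and that of Cfi in 13 of 25.

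The other 6 genes were not called between the HFHF groups. C3 averaged 3653 ± 1018 CPM with HFHF Flcn gRNA and 4374 ± 418 CPM in HFHF controls (SD), a log2 fold change of -0.26 (SE 0.15, adjusted p = 0.166). Its lowest library with the guide was replicate 8, at 1748 CPM, and without it the log2 fold change was -0.17 (adjusted p = 0.200). C8a averaged 417 ± 180 CPM with HFHF Flcn gRNA and 351 ± 72.5 CPM in HFHF controls, a log2 fold change of 0.25 (SE 0.24) with a 95% interval of -0.25 to 0.75. C4b stood at 0.17 (SE 0.09), Cfb at -0.04 (SE 0.06), C9 at -0.07 (SE 0.12) and C6 at -0.18 (SE 0.31) on the same log2 scale. The wide errors of C8a and C6 go with a wide spread among the libraries with the guide and, for C6, also among HFHF controls, described further on.

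Against chow controls, HFHF Flcn gRNA livers had 5 of the 9 genes lower (C3, Hc, C8a, C8b and Cfb), none higher, and 4 not called. Over all genes tested, 42.6% were called, 20.9% higher and 21.7% lower. C3, Hc, C8a and C8b did not overlap, against 8.98% of all genes tested in that direction and 9.01% in the other. C8b averaged 119 ± 61.5 CPM with HFHF Flcn gRNA and 360 ± 61.6 CPM in chow controls (SD), so it was 3.04-fold lower (log2 fold change -1.60, SE 0.31, adjusted p = 0.000491). C3 averaged 3653 ± 1018 CPM with HFHF Flcn gRNA and 8515 ± 670 CPM in chow controls, a log2 fold change of -1.22 (SE 0.16, adjusted p = 2.72e-06). C8a was at -1.11 (adjusted p = 0.00200), Hc at -0.56 (adjusted p = 0.000231) and Cfb at -0.27 (adjusted p = 0.00329). Cfi, called lower on the diet, stood at -0.12 here (SE 0.09, adjusted p = 0.292), with 377 to 586 CPM with HFHF Flcn gRNA and 515 to 632 CPM in chow controls. Summed over the 9 genes, the level was 8202 CPM at the median with HFHF Flcn gRNA, 8470 CPM in HFHF controls and 14502 CPM in chow controls. In shares of each library, that was 0.466% to 0.931%, 0.779% to 1.03% and 1.20% to 1.50% of all counts.

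The terminal genes shared much of their order among the libraries with the guide. There, replicates 1, 5 and 6 were the 3 highest, and replicates 4, 7 and 8 the 3 lowest, for each of the 5 terminal genes, Hc, C6, C8a, C8b and C9. Among HFHF controls, replicates 2 and 6 were the 2 highest for C6, C8a, C8b and C9, whereas Hc was highest in replicates 1 and 4. Among chow controls, replicates 4 and 5 were the 2 highest for Hc, C6, C8a and C9, whereas C8b was highest in replicates 1 and 5. The ratio of the highest to the lowest library with HFHF Flcn gRNA was 4.88 for C8b, 4.28 for C6 and 3.52 for C8a, against 1.73 for C9, 1.54 for Hc, 2.71 for C3 and 1.34 for Cfb. The SD of log2 CPM in that group was 0.82 for C8b, 0.76 for C6, 0.69 for C8a, 0.33 for C9 and 0.23 for Hc, beside a median of 0.22 over all genes tested. Wide spread was not limited to that group. In HFHF controls the SD was 0.39 for C8b, 0.54 for C6 and 0.28 for C8a, beside a median of 0.18. In chow controls it was 0.25, 0.40 and 0.30 for these genes, beside 0.19. C3 followed this order only in part. Its 3 highest libraries with the guide were replicates 1, 3 and 5, and its 3 lowest were replicates 6, 7 and 8. This shared order was noticed in the data, so it is a description with no test.

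**Figure D3:**
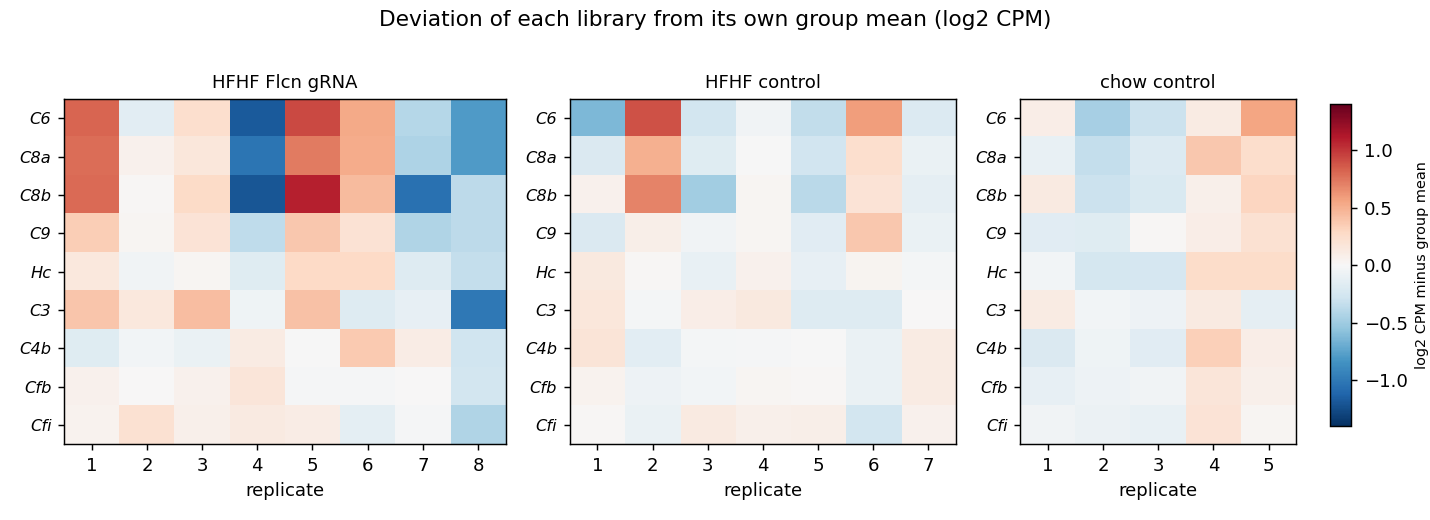
Deviation of each library (columns, replicates of each group) from its own group's mean log2 CPM, for the 9 complement genes (rows), with red above and blue below the mean. In HFHF Flcn gRNA livers C6, C8a, C8b, C9 and Hc are above the mean in replicates 1, 5 and 6. They are below it in replicates 4, 7 and 8. Cfb, C4b and Cfi do not show this pattern, since they are above their means in replicate 4.

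The likeness of profiles was measured as the root mean square difference of log2 CPM over the 20 libraries, among 7345 genes with a mean of at least 10 CPM. With each gene's own mean removed, the gene nearest to C3 outside the 9 was Itih3, an inter-alpha-trypsin inhibitor heavy chain (0.19), followed by Lrp1 (0.24) and Fgfr4 (0.24). For C8b it was Slc22a7, an organic anion transporter (0.32), followed by Ces3b (0.41) and Cyp7b1 (0.43). For C8a it was Aox3, an aldehyde oxidase (0.30), followed by Ces3a (0.31) and the coagulation factor gene F11 (0.32). These profiles hold the group differences as well as the spread within groups. With group means removed, a version added after seeing the data, the nearest of all genes to C6 was C8a and the nearest to C8a was C6 (0.20 for that pair). The nearest to C8b was again C8a (0.23), ahead of Slc22a7 (0.29). Genes outside the 9 were close behind, with Serpina3k at 0.24 from C6 and Ces3a at 0.23 from C8a. For Hc and C9 they were nearer than any of the 9. Inpp5f was at 0.09 from Hc and Mindy3 at 0.14 from C9, while Hc and C9 were 0.16 apart. C3, C4b, Cfb and Cfi also had a gene outside the 9 as their nearest. The libraries are shared by all these genes, and the values carry no test.

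The balance of the C8 chains differed among groups. In HFHF Flcn gRNA livers the ratio of C8b to C8a, in CPM per kb within a library, was 0.256 at the lowest, 0.385 at the median and 0.523 at the highest. In HFHF controls it was 0.151, 0.184 and 0.225, and in chow controls 0.467, 0.591 and 0.678. HFHF control libraries lay below all libraries of both other groups, while HFHF Flcn gRNA and chow libraries overlapped. C8g, the gamma chain gene, averaged 185 ± 22.1 CPM with HFHF Flcn gRNA, 159 ± 18.02 CPM in HFHF controls and 209.8 ± 9.67 CPM in chow controls (SD). It fell on the diet (log2 fold change -0.40, SE 0.09, adjusted p = 0.000544) and rose with the guide (0.22, SE 0.08, adjusted p = 0.0338). The corresponding fitted values were -2.94 on the diet and 1.34 with the guide for C8b, and -1.35 and 0.25 for C8a. The ratio of C8g to C8a had medians of 1.18 with HFHF Flcn gRNA, 1.07 in HFHF controls and 0.626 in chow controls. The ratio of C6 to C8a in the guide group spanned only 0.364 to 0.483, although each gene spanned more than 3-fold there. That ratio differed among groups, at 0.412 to 0.726 in HFHF controls and 0.269 to 0.395 in chow controls. Ratios were chosen after seeing the values and carry no test.

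**Figure D4:**
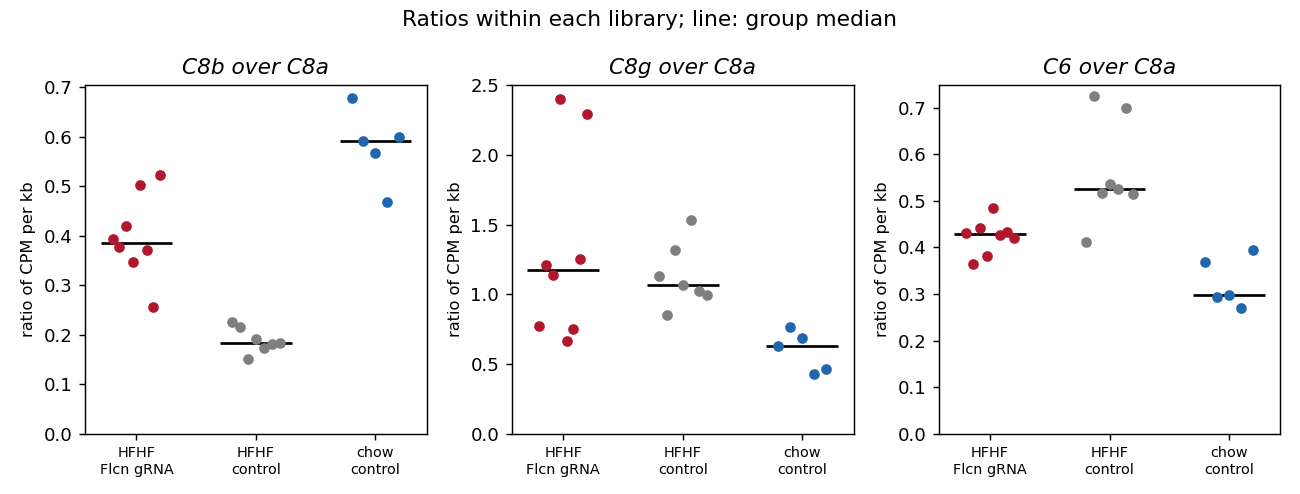
Ratios of length-scaled levels (CPM per kb, linear axis from 0) within each library for C8b over C8a, C8g over C8a and C6 over C8a, in HFHF Flcn gRNA (red), HFHF control (grey) and chow control (blue) livers; the line is the group median. C8b over C8a has medians of 0.385, 0.184 and 0.591 in these groups, and HFHF controls lie below all other libraries.

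The rest of the complement system moved in both directions. Of 43 further complement genes, 42 were in the table and 39 were tested. On the diet 13 were higher, 14 lower and 12 not called in HFHF controls against chow controls, with a median log2 fold change of -0.05. With the guide 9 were higher, 10 lower and 20 not called against HFHF controls, with a median of 0.04. Against chow controls 10 were higher, 12 lower and 17 not called with HFHF Flcn gRNA. Over all genes tested, 28.1% were called higher and 28.9% lower on the diet. The shares were 19.6% and 19% with the guide, and 20.9% and 21.7% with HFHF Flcn gRNA against chow controls. The counts by pathway below are to be read beside these shares. Those that fell on the diet included other proteins made by hepatocytes, and those that rose included C1q and receptors carried by myeloid cells.

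C2, the protease that pairs with C4b, lies 0.085 kb from Cfb. It averaged 68.6 ± 5.88 CPM with HFHF Flcn gRNA, 48.1 ± 4.89 CPM in HFHF controls and 87.7 ± 6.05 CPM in chow controls (SD). It fell on the diet (log2 fold change -0.87, adjusted p = 3.72e-09) and rose with the guide (0.51, adjusted p = 3.24e-06), and no groups overlapped. The gene model Gm20547 runs on beyond Cfb and measured 21.7 to 58.8 CPM, and reads that C2 may share with it were not examined. Of 7 lectin pathway genes tested, 4 rose and 1 fell with the guide, and 1 rose and 4 fell on the diet. Masp2, a protease of that pathway, averaged 189.8 ± 18.3 CPM with HFHF Flcn gRNA, 138 ± 12.3 CPM in HFHF controls and 191 ± 8.99 CPM in chow controls. Fcna, ficolin A, a recognition protein, averaged 26.5 ± 4.04 CPM with HFHF Flcn gRNA, 8.54 ± 1.61 CPM in HFHF controls and 23.6 ± 3.51 CPM in chow controls. It was 3.10-fold higher with the guide than in HFHF controls (log2 fold change 1.63, adjusted p = 3.10e-09) without overlap. Colec11, a collectin, went the other way, at 27.5 ± 3.68 CPM, 42.3 ± 3.25 CPM and 17.2 ± 2.33 CPM in the same groups.

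Among alternative pathway genes, Cfd, which encodes factor D, averaged 14.5 ± 9.42 CPM with HFHF Flcn gRNA, 2.09 ± 2.07 CPM in HFHF controls and 0.163 ± 0.103 CPM in chow controls. Libraries ranged from 4.82 to 35.3 CPM with HFHF Flcn gRNA and from 0.361 to 6.35 CPM in HFHF controls, while the 5 chow libraries held 1, 2, 1, 3 and 4 counts. Its log2 fold change with the guide was 2.83 (adjusted p = 0.000212), with some overlap. On the diet its call (adjusted p = 0.00722) was lost with limma-voom (adjusted p = 0.129). Of 10 regulators, 1 fell and none rose with the guide, and 2 rose and 3 fell on the diet. Vtn, vitronectin, which blocks assembly of the pore, fell on the diet (log2 fold change -0.54, adjusted p = 1.86e-05), and Cd59a, which blocks it on cell surfaces, rose (0.57, adjusted p = 3.61e-05).

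On the diet, the genes of C1q and of most receptors were called higher, whereas none of the 9 liver-made genes was. C1qb averaged 32.0 ± 7.61 CPM with HFHF Flcn gRNA, 59.7 ± 11.1 CPM in HFHF controls and 22.0 ± 6.11 CPM in chow controls (SD). Its log2 fold change was -0.90 with the guide (adjusted p = 0.000199) and 1.44 on the diet (adjusted p = 3.31e-06), and C1qa and C1qc were called the same way in both. Of 8 receptors, 5 fell and none rose with the guide, and 5 rose and none fell on the diet. C5ar1, the receptor of C5a, averaged 0.345 ± 0.179 CPM with HFHF Flcn gRNA, 2.46 ± 0.599 CPM in HFHF controls and 0.445 ± 0.218 CPM in chow controls, with log2 fold changes of -2.85 with the guide (adjusted p = 1.85e-07) and 2.46 on the diet (adjusted p = 2.87e-06). Itgam and Itgax, subunits of complement receptors 3 and 4, moved likewise. Markers of monocyte-derived macrophages, a list that holds Itgam and Itgax too, summed to 45.4 to 169 CPM with HFHF Flcn gRNA, 58.5 to 182 CPM in HFHF controls and 2.72 to 8.02 CPM in chow controls. Of these 7 markers, 6 fell and none rose with the guide and 7 rose on the diet, and their part in the result was not tested. The marker not called with the guide was Gpnmb (log2 fold change 0.65, edgeR adjusted p = 0.172). It averaged 72.3 ± 34.9 CPM with HFHF Flcn gRNA and 46.1 ± 25.9 CPM in HFHF controls, and was the largest part of the sum with the guide.

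**Figure D5:**
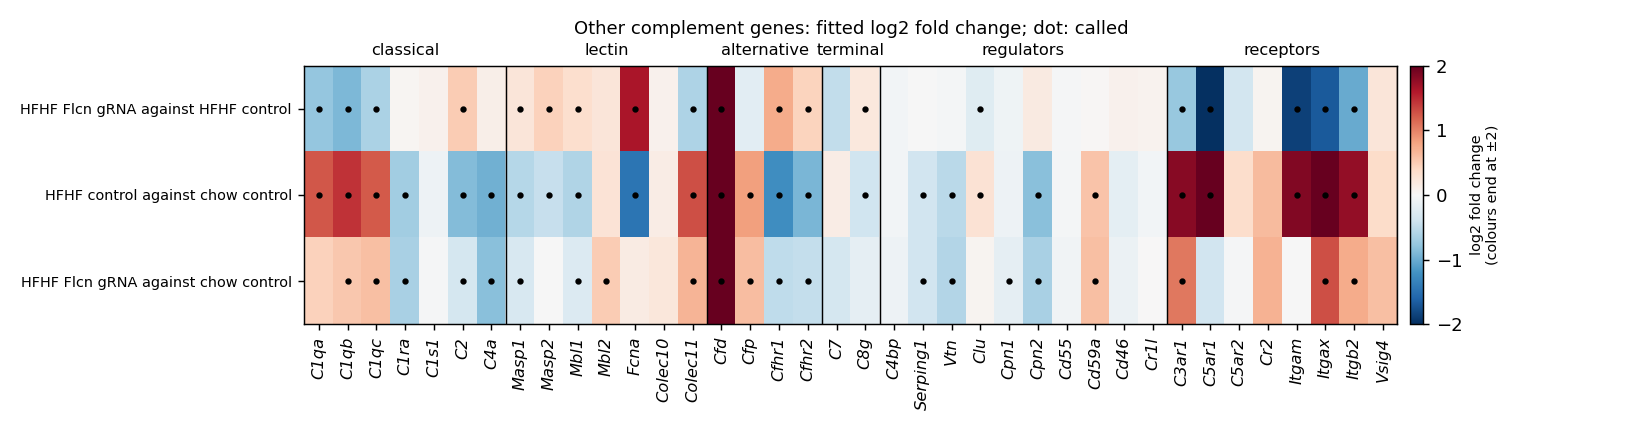
Fitted log2 fold change (colour, red higher and blue lower, colours end at ±2) of further complement genes tested (columns, by pathway) in each comparison (rows); a dot marks an adjusted p under 0.05. Among the receptors 5 of 8 are called lower with the guide and 5 of 8 higher on the diet, while the lectin pathway has 4 of 7 called higher with the guide and 4 of 7 called lower on the diet.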

How the data were processed

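Liver mRNA-seq libraries (single-end reads of 51 bases, KAPA mRNA HyperPrep, dual-index UMI adapters) were described per the labels' protocols. The deposited table holds expected counts per gene made by the authors on build GRCm38, per the submitters' processing notes, with Ensembl IDs. The counter, its strand setting and any use of UMIs are not given in the sources, and 77.8% of the deposited expected counts of at least 1 were whole. Symbols came from the GRCm38 annotation, and 22 vector or construct features, with 7 counts in all, and 1 column of no mapped sample were left out. Replicate numbers follow accession order.

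Expected counts were rounded, filtered with filterByExpr, scaled with TMM and fitted for all 3 groups at once with the robust quasi-likelihood test of edgeR 4.0.16 (R 4.3.3), which tested 13667 genes with 17 residual degrees of freedom. P-values were adjusted by Benjamini-Hochberg over all genes, with a threshold of 0.05. CPM is the count relative to the TMM-scaled library size. Two-sided exact permutation tests used log2 CPM with a prior count of 2. Intervals of fold changes are 95% intervals. Alternatives were DESeq2 1.42.0, limma-voom (limma 3.58.1), upper-quartile scaling, no filter, fits on 2 groups, and leaving out each library. Genes named from the lists were mostly those called with the smallest p of each list in a comparison, up to 4. Others were named as nearest profiles, as overlapping, near-copy or neighbouring genes, as markers, or to follow a gene across comparisons. The 9 genes and all lists were chosen with earlier results of these data known. A few genes that count in the lists are not reported here by name.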

Additional observations from a re-analysis of the deposited data

How the results depend on the processing

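No called value of the 9 genes changed its direction under the 25 alternatives to the edgeR fit or the 2 summed gene pairs. Among values not called, C6 with the guide against HFHF controls (-0.18) was 0.0075 without HFHF control replicate 2, and C4b with the guide against chow controls (0.01) ranged from -0.05 to 0.12 and was -0.02 summed with C4a. The number of the 9 genes called higher with HFHF Flcn gRNA against HFHF control was 3, but 1 under upper-quartile normalization, 1 with no filter on low counts, and 1 to 3 when each library was left out. It was 1 without HFHF Flcn gRNA replicate 1, 2, 3 or 5, HFHF control replicate 2 or 6, or chow control replicate 1, with C8b remaining each time. The adjusted p ranged over the alternatives from 0.016 to 0.117 for Hc and from 0.004 to 0.126 for Cfi. The number called lower ranged from 5 to 6 on the diet and from 5 to 6 with HFHF Flcn gRNA against chow control when each library was left out. C6 was called lower in the last comparison with limma-voom (log2 fold change -0.83, adjusted p = 0.0428) and without HFHF Flcn gRNA replicate 5 (-0.83, adjusted p = 0.04998). Upper-quartile normalization put 37.8% of all calls higher with the guide, against 50.7% in the fit reported, and 60.7% against 49.4% on the diet. The causes were not tested. Leaving out HFHF Flcn gRNA replicate 8 changed no call of the 9 genes. No paired analysis was possible because replicate numbers follow accession order and pair no samples.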

Other observations

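Of 19 genes of liver transcription factors and cytokine signalling known to act upstream of complement genes, 2 rose and 5 fell in HFHF controls against chow controls, and 12 were not called; over all genes tested, 57% were called. The nuclear receptor gene Hnf4a averaged 389 ± 16.9 CPM in HFHF controls and 527 ± 56.0 CPM in chow controls (SD, log2 fold change -0.44, edgeR adjusted p = 0.00034). Stat3, which carries the interleukin-6 signal, fell (log2 fold change -0.46, adjusted p = 3.9e-05), and Ifngr1, an interferon gamma receptor chain, rose (0.82, adjusted p = 1.85e-06).

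With HFHF Flcn gRNA against HFHF controls, 2 of the 19 rose, 7 fell and 10 were not called, where 38.6% of all genes tested were called. Nr1h4, the bile acid receptor FXR, averaged 102 ± 10.5 CPM with HFHF Flcn gRNA and 82.3 ± 7.24 CPM in HFHF controls (log2 fold change 0.32, adjusted p = 0.000969). Ifngr1 fell (log2 fold change -0.63, adjusted p = 1.75e-05), as did Nfkb1 (-0.32, adjusted p = 0.000876) and Rela (-0.26, adjusted p = 0.00483), which encode NF-kB subunits. Stat3 was not called (-0.11, adjusted p = 0.249). Against chow controls none of the 19 rose, 4 fell and 15 were not called, where 42.6% of all genes tested were called.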
